A study of Mus musculus with 14 samples.

Results

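Mammary glands of ovariectomized mice that received estradiol together with fulvestrant, raloxifene or tamoxifen were compared with glands of mice that received estradiol alone. The members were 5 of the 14 arrays of the study, chosen by the treatment in the labels: 1 array each of E2+fulvestrant, E2+raloxifene and E2+tamoxifen (E2 is 17-beta-estradiol), and 2 arrays of E2. All animals were female C57BL/6 mice, 11 to 12 weeks old at arrival, with 1 week of acclimation, ovariectomy 7 days before treatment and death 3 h after it. The glands of a group, 8 mice by the labels, were pooled, so each array shows an average over animals, and the labels do not say whether the 2 E2 arrays came from separate pools. For reference, the study holds 2 arrays of vehicle, 1 array each of fulvestrant, raloxifene and tamoxifen without E2, and 2 arrays each of acolbifene (the blocker also called EM-652) and E2+acolbifene. Values are log2 expression levels of probe sets, and a difference of 1 log2 unit is a doubling. The sources used here state no dose for the blockers, so whether doses were matched is unknown.

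Estradiol binds the estrogen receptors, which are transcription factors, and in the mammary gland the receptor of the luminal epithelium, Esr1, controls target genes such as Pgr and Greb1. Fulvestrant is a steroidal antiestrogen that impairs receptor function and leads to loss of the receptor protein. Raloxifene, a benzothiophene, and tamoxifen, a triphenylethylene, are selective modulators whose action can be agonist or antagonist depending on the tissue. The mRNA of Esr1 was 10.55 and 10.60 in the E2 arrays, 10.57 with E2+fulvestrant, 10.51 with E2+raloxifene and 10.48 with E2+tamoxifen. The levels of Esr1 mRNA in the combinations therefore differed little from those with E2 (difference -0.05 log2, SE 0.08, adjusted p = 0.760 by limma, as for all adjusted p-values here), and the receptor protein was not measured.

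Markers of cell types were looked at in the labelled tissue. All 19 measured markers of luminal cells and all 15 of adipocytes exceeded the level called dim (6.65, the 40th percentile of mean levels) on at least 1 array. The same held for all measured markers of endothelium, fibroblasts, macrophages, lymphocytes and brown adipocytes. It therefore does not set the mammary gland apart from other tissues. Array medians lay between 7.16 and 7.23. The raw-file names carry a code, R136 or R137, whose meaning is not stated: the 6 arrays without a replicate and E2 array 1 carry R136, and E2 array 2 and the 6 arrays of vehicle, acolbifene and E2+acolbifene carry R137. The 6 arrays without a replicate lay above all 8 others in 84 probe sets and below all of them in 362. For such probe sets, a difference between the combinations and E2 cannot be told apart from a difference between these sets of arrays. In the E2 pair 310 probe sets were over 1.5-fold apart, more than in the vehicle pair (111), the acolbifene pair (153) or the E2+acolbifene pair (75).

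With all 3 combinations in 1 comparison, 61 of 45037 probe sets (0.135%) rose and 143 (0.318%) fell against E2, counting those past an adjusted p of 0.05 in which the 3 combination arrays lay beyond both E2 arrays. They covered 50 genes higher and 98 lower. The changes were modest: the differences of the 61 lay between 0.41 and 0.86 log2, and those of the 143 between 0.41 and 1.18 log2. None of the 204 passed for all 3 compounds tested one at a time. The 204 rest heavily on single arrays. Without E2 array 1 the count was 747 and without E2 array 2 it was 7, without E2+fulvestrant 850, without E2+raloxifene 27 and without E2+tamoxifen 63, and without any 1 of the other replicated arrays it was 81 to 96. When the fit had a term for the code, 5 probe sets passed, 4 of them among the 204; of these 4, Ccn1 is the one with a gene name. Only the E2 pair spans both codes, so with this term E2 array 2 no longer counts in the comparison with E2. The code term and leaving out E2 array 2 are therefore not separate checks. Fewer cells of a type and less RNA per cell cannot be told apart in glands taken whole.

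Most of the shared changes described first were falls of genes that were higher with E2 than with vehicle. The difference between the E2 effects with and without blockers was also tested, an alternative chosen after seeing the data. It is (combinations minus the same blockers alone) minus (E2 minus vehicle). A constant offset of the 6 unreplicated arrays cancels in it. An offset between the raw-file codes does not cancel fully, because the E2 pair spans both codes and the vehicle pair does not. This difference passed in 65 of all 45037 probe sets (13 higher, 52 lower). In the same direction it passed in 19 of the 143 lower and 0 of the 61 higher ones. It uses the same E2 arrays that chose the 143, so this count is no independent evidence. The 19 covered 14 named genes, listed after their values were seen: Ankrd10, Atp8b1, Ccn1, Ccn2, Disp1, Gadd45g, Ighm, Mad2l1, Mb, Mfsd4a, Mmd2, Plod2, Rbm20 and Sln.

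Before their values, the upstream 250 bases of 2 of these genes are shown because the genes fell together, beside 1 gene each of the lower and higher sets of raloxifene described further on. The sequences are RefSeq promoters of build GRCm38.p6, the first start listed for each gene, read 5′ to 3′ on the gene's strand. Capitals mark matches, on either strand, to the estrogen response half-site TGACC, to the AP-1 site TGANTCA and to the TEAD site GGAATG; the 3 motifs did not overlap in these sequences. The window of Ccn1 is chr3:145649986-145650235 on the minus strand, of Gadd45g chr13:51846425-51846674 on the plus strand, of Greb1 chr12:16800887-16801136 on the minus strand and of Serpinb2 chr1:107511173-107511422 on the plus strand.
Ccn1: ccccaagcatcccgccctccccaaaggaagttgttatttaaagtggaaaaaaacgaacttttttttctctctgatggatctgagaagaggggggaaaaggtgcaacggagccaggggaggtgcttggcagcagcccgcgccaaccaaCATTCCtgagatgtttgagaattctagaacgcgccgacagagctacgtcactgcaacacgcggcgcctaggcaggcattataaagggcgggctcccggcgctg
Gadd45g: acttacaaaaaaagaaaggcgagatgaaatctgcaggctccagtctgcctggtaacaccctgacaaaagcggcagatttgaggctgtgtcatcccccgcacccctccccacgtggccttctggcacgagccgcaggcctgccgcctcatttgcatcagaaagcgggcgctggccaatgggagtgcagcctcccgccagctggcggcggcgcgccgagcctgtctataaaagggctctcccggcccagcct
Greb1: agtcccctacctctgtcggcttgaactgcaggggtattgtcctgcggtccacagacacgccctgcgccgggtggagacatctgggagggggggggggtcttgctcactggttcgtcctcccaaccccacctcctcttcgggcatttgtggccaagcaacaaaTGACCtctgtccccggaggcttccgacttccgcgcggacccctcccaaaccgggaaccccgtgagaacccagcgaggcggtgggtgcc
Serpinb2: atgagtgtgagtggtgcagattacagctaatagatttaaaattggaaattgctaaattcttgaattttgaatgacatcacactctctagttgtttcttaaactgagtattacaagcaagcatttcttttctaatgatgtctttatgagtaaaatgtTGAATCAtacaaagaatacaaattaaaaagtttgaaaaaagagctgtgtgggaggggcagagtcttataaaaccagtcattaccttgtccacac
The window of Ccn1 held 1 TEAD site and no half-site, that of Gadd45g held no match, that of Greb1 held 1 half-site that begins 88 bases before the start, and that of Serpinb2 held 1 AP-1 site. Among 27025 promoters of that length the half-site occurs in 34.9%, the AP-1 site in 6.87%, the TEAD site in 12.6% and the full estrogen response element in 0.0629%. Of the 14 named genes 8 had a promoter in the table, and 2 of the 8, Mad2l1 and Mb, held a half-site, a share read only as a description.

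Ccn1 encodes a secreted matricellular protein and is an early-response gene of many stimuli. Its level was 7.86 and 7.83 with vehicle, 9.99 and 9.71 with E2, and 9.29 with E2+fulvestrant, 8.56 with E2+raloxifene and 9.44 with E2+tamoxifen. The combinations lay between the vehicle and E2 arrays and the fall was deepest with raloxifene. Against E2 the 3 together were lower by a difference of -0.76 log2 (SE 0.09, 1.69-fold, adjusted p = 0.0171), and the difference of the E2 effects was -1.26 log2 (SE 0.13, adjusted p = 0.00614). The other 2 probe sets of Ccn1 among the 19 fell as well, with differences of -0.64 and -0.66 log2, and a further one did not lie below both E2 arrays with tamoxifen (7.50 against 7.62 and 7.35). The call of the first probe set was kept in 15 of 16 alternative settings and those of the other 2 in 12 and 9. The median over the 204 was 6 of 16. These settings are not 16 separate checks. Leaving out either array of the vehicle, acolbifene or E2+acolbifene pair gave the same count within the pair. The code term and leaving out E2 array 2 overlap as well.

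Gadd45g, a growth arrest and DNA damage response protein, was at 7.60 and 7.85 with vehicle and at 9.41 and 9.18 with E2. It was 8.44 with E2+fulvestrant, 8.14 with E2+raloxifene and 8.56 with E2+tamoxifen, all below both E2 arrays, a difference of -0.91 log2 (SE 0.11, 1.88-fold, adjusted p = 0.0171). The blockers alone gave 7.88 with fulvestrant, 7.82 with raloxifene and 7.87 with tamoxifen, close to vehicle. Gadd45g thus lay nearer to vehicle in the combinations than in the E2 arrays, while every combination was above the same blocker alone.

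Mad2l1, a component of the spindle checkpoint, was at 8.14 and 8.30 with vehicle, 9.90 and 9.78 with E2, and 9.11, 8.70 and 9.69 with E2+fulvestrant, E2+raloxifene and E2+tamoxifen. With tamoxifen Mad2l1 lay only just below the lower E2 array, and the shared difference was -0.67 log2 (SE 0.10, adjusted p = 0.0263). It was the 1 gene of 35 measured cell cycle genes that fell in the shared comparison, and 0 rose, where 42 of all 18193 genes fell and 29 rose. Mmd2, a membrane protein of the progestin and adipoQ receptor family, was at 9.11 and 9.18 with E2 and at 8.74, 8.05 and 8.66 in the same order of combinations (difference -0.66 log2, SE 0.09, adjusted p = 0.0225). Its vehicle levels were 7.37 and 7.13 and its levels with the blockers alone 7.27, 7.55 and 7.43, so each combination lay above the same blocker alone.

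Plod2, a lysyl hydroxylase that modifies collagen, was at 10.46 and 10.67 with E2 and at 10.26, 9.94 and 9.85 with the combinations (difference -0.55 log2, SE 0.08, adjusted p = 0.0283). Rbm20, a splicing factor, was at 8.22 and 8.13 with E2 and at 7.74, 7.24 and 7.54 (difference -0.67 log2, SE 0.08, adjusted p = 0.0171). In both genes the groups did not overlap, which the shared call requires. Vehicle lay lower still, at 8.96 and 8.96 for Plod2 and 6.77 and 6.89 for Rbm20. Ccn2, connective tissue growth factor, was at 9.42 and 9.41 with E2 and at 8.88, 8.96 and 9.02, with an adjusted p of 0.0499 at the edge of the threshold (limma), and the call was kept in 4 of 16 settings. The blockers alone gave 9.03, 8.96 and 9.32, above vehicle at 8.11 and 8.31, so Ccn2 was no higher in the combinations than with the same blockers alone (difference -0.15 log2, adjusted p = 0.84).

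**Figure D1:**
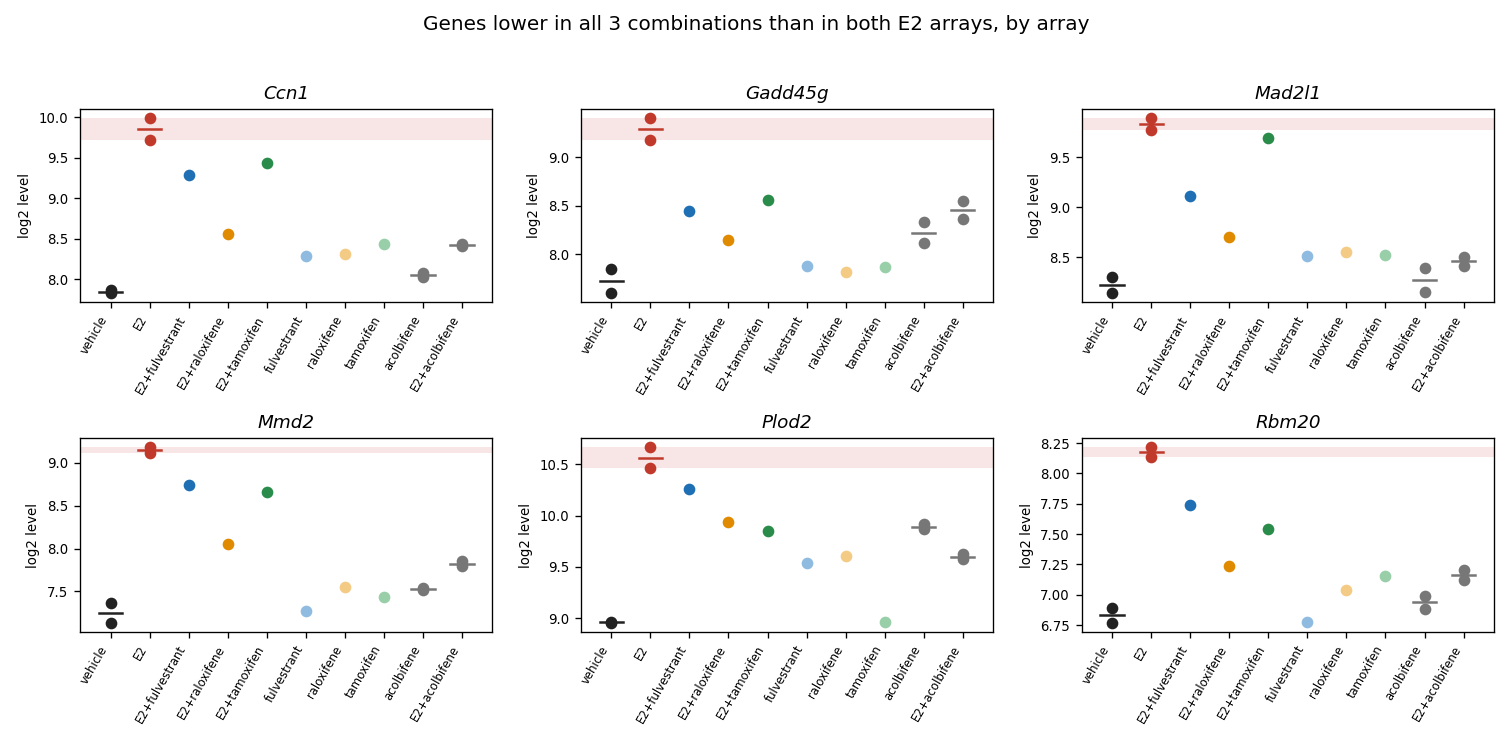
log2 level (y axis) of 6 genes on each of the 14 arrays, grouped by treatment (x axis); dots are arrays, short lines are means of 2 arrays and the red band spans the 2 E2 arrays. In each panel the 3 combination arrays lie below the band and above the vehicle arrays. The position below the band was a condition of the shared call.

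In some of the 19, Ccn2 among them, the combinations did not lie above the same blockers alone. Mb, myoglobin, and Sln, sarcolipin, are muscle genes. Mb was at 8.34 and 8.98 with E2, at 7.23, 7.19 and 8.10 in the combinations and at 7.08 and 7.10 with vehicle, while fulvestrant, raloxifene and tamoxifen alone gave 8.55, 7.59 and 7.95 (difference of the combinations from E2 -1.15 log2, SE 0.16, adjusted p = 0.0261). The summed level of 27 skeletal muscle markers was 13.60 and 14.75 log2 on the 2 E2 arrays, 14.16 with E2+fulvestrant, 12.91 with E2+raloxifene and 13.85 with E2+tamoxifen, and the part of muscle content in the levels of Mb and Sln was not tested. For Ighm, the heavy chain of immunoglobulin M, vehicle (9.07 and 9.02 at one of 2 probe sets) lay close to E2 (9.05 and 9.01). The combinations were 8.64, 8.14 and 8.26. Fulvestrant and tamoxifen alone were above E2, at 9.90 and 9.66, and raloxifene alone was below it, at 8.68. At the other probe set fulvestrant, raloxifene and tamoxifen alone were at 8.87, 7.57 and 8.56, against 8.06 and 7.97 with E2.

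Among early-response genes, 4 of 32 measured fell in the shared comparison, Ccn1, Ccn2, Gadd45g and Fosl2, and 0 rose, where 42 of 18193 genes fell and 29 rose; 15 of the 32 had all 3 combinations below both E2 arrays, against 3100 of 18193 genes. The list's median difference from E2 was -0.13 log2, where the median of all genes was -0.00. Such a downward shift was not particular to this list. Of the ribosome biogenesis genes, 17 of 28 had all 3 combinations below both E2 arrays (median -0.15 log2, 0 passed). Of the chaperone and endoplasmic reticulum stress genes, 14 of 27 did (median -0.14 log2, 0 passed). Fosl2, a subunit of the AP-1 transcription factor, was at 9.99 and 9.92 with E2 and at 9.52, 9.31 and 9.34 in the combinations (difference -0.57 log2, SE 0.10, adjusted p = 0.0408), a call kept in 6 of 16 settings. Junb, another AP-1 subunit, was at 9.61 and 9.55 against 9.20, 8.87 and 9.26 and did not pass (adjusted p = 0.0505). Fos itself was at 10.88 and 11.10 with E2 and 10.79, 10.72 and 10.98 in the combinations, which overlapped the E2 arrays. The glucocorticoid-responsive and metallothionein genes had a median of -0.24 log2 with 13 of 20 below both E2 arrays in all 3 combinations, and 0 passed by limma (0 higher and 11 lower at an unadjusted p under 0.05, against 1937 and 1963 of all genes).

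Among the 15 named genes that fell with the largest gaps to E2, some were equally low with the blockers alone. Pde4b, a phosphodiesterase of cyclic AMP, was at 7.91 and 7.96 with E2 and 6.94, 7.03 and 7.05 in the combinations (difference -0.93 log2, SE 0.13, adjusted p = 0.0261), and at 7.2, 7.07 and 7.07 with fulvestrant, raloxifene and tamoxifen alone. Sod1, the cytosolic superoxide dismutase, was at 11.34 and 11.36 with E2, 10.71, 10.56 and 10.54 in the combinations, and 10.56, 10.55 and 10.72 with the blockers alone, while vehicle was at 11.26 and 11.38. This probe set of Sod1 was therefore low on all 6 unreplicated arrays. Snrpd3, a core protein of the spliceosome, and Malat1, a nuclear long noncoding RNA, were also below all 8 other arrays on these 6. Other probe sets below both E2 arrays in all 3 combinations numbered 1 of 5 for Pde4b and 1 of 4 for Sod1. For Snrpd3 they numbered 0 of 2 and for Malat1 5 of 6. In all, 34 of the 143 lower and 4 of the 61 higher probe sets set the 6 unreplicated arrays apart from the 8 others, and in these treatment and array set cannot be told apart.

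Kcna5, a voltage-gated potassium channel, and Cxcr4, the receptor of the chemokine Cxcl12, had vehicle levels below E2 as well. Kcna5 was at 8.78 and 8.86 with E2, 8.27, 7.96 and 8.30 in the combinations, 8.25 and 8.35 with vehicle (difference -0.65 log2, SE 0.08, adjusted p = 0.0171). Cxcr4 was at 9.42 and 9.40 with E2, 8.58, 8.94 and 8.57 in the combinations and 8.52 and 8.82 with vehicle (difference -0.71 log2, SE 0.13, adjusted p = 0.0468). Both lay in the combinations at or near vehicle. The other named falls were Ptprg and Ptprc (protein tyrosine phosphatases, the second also called CD45), Ripor2, Sbno1, Sarnp, Rsbn1, Snrpa1 and a further probe set of Ighm, with differences between -0.55 and -0.94 log2. Other probe sets below both E2 arrays in all 3 combinations numbered 0 of 3 for Ptprg and 0 of 1 for Ptprc. They numbered 1 of 3 for Ripor2, 1 of 2 for Rsbn1, 4 of 4 for Sbno1, and 2 of 2 each for Sarnp and Snrpa1.

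In all, the vehicle arrays also lay below both E2 arrays in 96 of the 143 lower probe sets, the blockers alone in 135 and E2+acolbifene in 120, and all 3 of these in 92. The vehicle arrays lay on the opposite side in 19. Of the 61 higher probe sets, 38 had vehicle above both E2 arrays too, 58 the blockers alone and 59 E2+acolbifene, and 35 all of these. Over all 45037 probe sets vehicle lay above both E2 arrays in 30.1% and below them in 22%. The blockers alone lay above both in 21.6% and below both in 19.2%. For E2+acolbifene, and for all of these together, the share over all probe sets was not counted. These comparisons share the E2 arrays, so such counts are no independent evidence.

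Of the genes that rose against E2 in all 3 combinations, Cldn3 and Btc belong to the luminal and EGF receptor lists. Cldn3, a tight junction protein of the luminal epithelium, was at 9.33 and 9.24 with E2, at 9.67, 9.92 and 9.76 in the combinations and at 9.80 and 9.86 with vehicle (difference 0.50 log2, SE 0.08, adjusted p = 0.0329). Its other 3 probe sets lay above both E2 arrays in all 3 combinations too. Btc, betacellulin, a ligand of the EGF receptor, was at 6.75 and 6.86 with E2 and at 7.19, 7.38 and 7.67 in the combinations (difference 0.61 log2, SE 0.10, adjusted p = 0.0346). It was the 1 of 20 genes of EGF receptor signalling that rose, and 0 fell, against 29 and 42 of 18193 genes. The other probe set of Btc did not lie above both E2 arrays in all 3 combinations. The calls of Cldn3 and Btc were kept in 6 and 8 of 16 settings. Arhgap29 was at 6.01 and 6.20 with E2 and at 7.03, 6.74 and 6.83 (difference 0.76 log2, SE 0.10, adjusted p = 0.0216); its 2 other probe sets did not lie beyond E2 in all 3 combinations. Rock1, a protein kinase, Esrp2, an epithelial splicing regulator, Tacc1, a centrosomal protein, and Rmnd5a, a ubiquitin ligase subunit, rose by 0.42 to 0.54 log2; for Tacc1, Esrp2 and Rmnd5a the 6 unreplicated arrays stood above the 8 others.

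Sox4, a transcription factor, and Nrsn2, a neuronal vesicle protein, were highest with tamoxifen. Sox4 was at 7.88 and 7.70 with E2, 8.20 with E2+fulvestrant, 8.20 with E2+raloxifene and 9.04 with E2+tamoxifen. Nrsn2 was at 5.94 and 5.62, and 6.38, 6.38 and 7.14 in the same order. The change was largest with tamoxifen in 46 of the 61 higher and in 73 of the 143 lower probe sets. Over all probe sets E2+tamoxifen also differed most from E2. It was over 1.5-fold from the E2 mean in 1114 probe sets, against 157 for E2+fulvestrant and 341 for E2+raloxifene. The spread of levels over probe sets was narrowest of the 14 arrays on E2+tamoxifen (SD 1.88). Its own comparison with E2 gave 1453 calls (3.23% of probe sets), and after a second quantile normalization 525. The remaining named rises were Fam71e1, Ubxn2b, Ptchd1, Hoxb5os, Fam181a and Nat8f2, by 0.49 to 0.56 log2. Over the 25 of the 30 named genes that have other probe sets, 29 of 74 other probe sets lay beyond both E2 arrays on the same side in all 3 combinations.

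**Figure D2:**
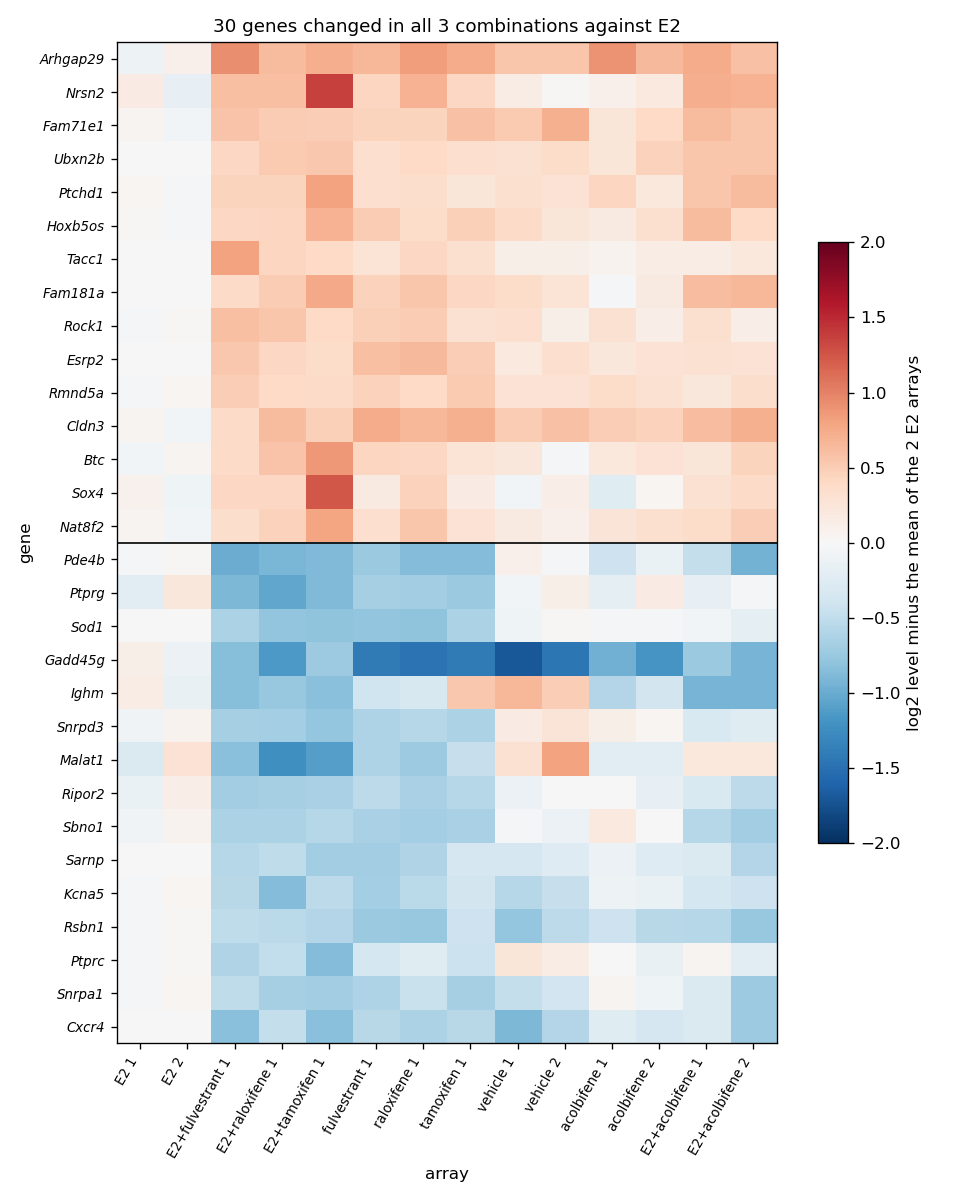
Difference of the log2 level from the mean of the 2 E2 arrays (colour) for the 30 named genes (rows, the 15 higher above the line and the 15 lower below it) on the 14 arrays (columns). Sod1, Snrpd3 and Sbno1 are blue also in the 3 arrays of blockers alone, whereas the vehicle columns of Sod1 and Snrpd3 are close to white.

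Of the 31 measured canonical estrogen targets, 0 rose and 0 fell in the shared comparison by limma (1 and 7 at an unadjusted p under 0.05, against 1937 and 1963 of 18193 genes), with a median difference of -0.04 log2. All 3 combinations lay below both E2 arrays in 6 of the 31, a share near that of all genes (3100 of 18193). As a set, this list hardly moved with E2. Its median level relative to vehicle was -0.02 and 0.06 on the E2 arrays, and -0.02 and 0.02 on the vehicle arrays. The lack of shared falls in it therefore says little about blockade of E2. Pgr, the progesterone receptor, was at 8.05 and 7.57 with vehicle, 10.59 and 10.55 with E2, and 10.55, 10.07 and 10.59 in the combinations (difference -0.17 log2, SE 0.14, adjusted p = 0.524). Against the same blockers without E2 the combinations kept Pgr higher by 1.45 log2 (SE 0.13, adjusted p = 0.00047). F3, tissue factor, which starts coagulation, was at 10.93 and 10.52 with E2 and at 10.73, 9.79 and 10.65, against 8.35, 9.0 and 9.47 with the blockers alone. Foxa1, a pioneer factor of the estrogen receptor, was at 10.38 and 10.52 with vehicle, 8.56 and 9.29 with E2, and 9.23, 10.03 and 8.80 in the combinations. In Pgr, F3 and Foxa1 the E2+raloxifene array lay nearest to vehicle of the 3 combinations.

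The E2 effect in the presence of a blocker was tested directly by setting the 3 combinations against fulvestrant, raloxifene and tamoxifen alone, 6 arrays that all carry the code R136. Here 131 probe sets were higher and 62 lower (0.429% of probe sets). Krt4, a keratin of stratified epithelium, was 2.64 log2 higher (SE 0.13, adjusted p = 4.6e-06), and Acot1, an acyl-CoA thioesterase, 1.67 log2 higher (SE 0.10, adjusted p = 3.46e-05). Foxa1 was lower by a difference of -1.05 log2 (SE 0.15, adjusted p = 0.00922), as was Tmprss2, a transmembrane protease, by -0.98 log2 (SE 0.10, adjusted p = 0.00143). With the compound as a block on these 6 arrays, an alternative chosen after seeing the data, 86 passed, 77 of them among the 193. The count was 50 without E2+fulvestrant, 88 without E2+tamoxifen, and 142 to 259 without E2+raloxifene or any 1 array of a replicated group. Set against vehicle, the combinations differed in 3957 probe sets (8.79%); here the code differs between the groups and only the E2 pair spans both codes. The count was 33 with a term for the code, 1476 without E2+tamoxifen, and 917 or 753 without vehicle array 1 or 2.

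Taken one at a time against E2, the compounds differed widely in the number of calls. Fulvestrant changed 12 probe sets (0.0266%), 10 of them higher, raloxifene 85 (0.189%), 30 higher and 55 lower, and tamoxifen 1453 (3.23%), 872 higher and 581 lower. These comparisons share the 2 E2 arrays. The large tamoxifen count fell to 6 when E2 array 2 was left out, and without it raloxifene had 43 calls and fulvestrant 10. Without 1 vehicle, acolbifene or E2+acolbifene array, tamoxifen had 785 to 1257 calls, raloxifene 56 to 62 and fulvestrant 4 to 6. Without E2 array 1 the counts were 1852 for tamoxifen, 202 for raloxifene and 59 for fulvestrant.

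The changes of raloxifene only were the most numerous among those of one compound: 17 probe sets (0.0377%), 11 higher and 6 lower, against 1 for fulvestrant (0.00222%) and 2 for tamoxifen (0.00444%). Such a probe set had to differ from E2 and from the mean of the other 2 combinations, lie beyond the 4 other arrays, and not be called for the other 2 compounds. The count for raloxifene was 0 without E2+tamoxifen, where the rule rests on the pair of fulvestrant and raloxifene, 11 without any 1 acolbifene or E2+acolbifene array, and 14 to 20 without E2+fulvestrant or any 1 vehicle or E2 array. Of the 17, 4 were also among the shared changes (Mmp12, Mfsd4a, Mmd2 and Syn2). In these raloxifene gave the largest change, which the rule requires.

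The 6 lower probe sets were all higher on both E2 arrays than on both vehicle arrays. By the rule they were lower on the 1 E2+raloxifene array than with E2. Krt4 was at 7.12 and 6.97 with vehicle, 10.95 and 10.38 with E2, 10.55 with E2+fulvestrant, 9.24 with E2+raloxifene and 10.84 with E2+tamoxifen. Only the raloxifene combination lay clear of the E2 range, and it was still above raloxifene alone at 7.87. The difference of E2+raloxifene from E2 was -1.43 log2 (SE 0.19, adjusted p = 0.0156), and from the other 2 combinations -1.46 log2 (SE 0.19, adjusted p = 0.0254). A second probe set of Krt4 behaved alike, at 8.90 and 8.50 with E2 and 7.44 with E2+raloxifene.

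Greb1, an estrogen-induced coregulator of the receptor whose upstream window is printed above, was at 6.94 and 7.02 with E2, 7.00 with E2+fulvestrant, 5.92 with E2+raloxifene and 7.32 with E2+tamoxifen, while vehicle was at 5.38 and 5.42. E2+raloxifene differed from E2 by -1.06 log2 (SE 0.14, adjusted p = 0.0156) and the other 2 combinations lay at or above E2. The mean level of Greb1 over all arrays was below the dim level, which makes its difference less certain. The brightest probe set of Greb1 stands for it in the target list. Unlike the probe set described first, it did not respond to E2 (6.94 and 7.06 with vehicle, 7.13 and 6.88 with E2). Syn2, synapsin II, a synaptic vesicle protein, was at 8.45 and 8.38 with E2, and 8.15, 7.37 and 8.37 in the combinations (E2+raloxifene minus E2 -1.05 log2, SE 0.10, adjusted p = 0.00419). Mfsd4a, a membrane transporter, was at 7.76 and 8.03 with E2 and 7.69, 6.42 and 7.33, and Mmd2 at its second probe set at 9.21 and 9.17 against 8.95, 7.93 and 8.73. In each of these 5 genes E2+raloxifene was the lowest combination, which the rule for raloxifene only requires.

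All 11 higher probe sets were also above both E2 arrays with raloxifene alone and with fulvestrant alone. Serpinb2, plasminogen activator inhibitor 2, was at 7.03 and 6.70 with E2, 7.31 with E2+fulvestrant, 8.87 with E2+raloxifene and 6.37 with E2+tamoxifen. Its level was 7.67 with raloxifene, 7.45 with fulvestrant and 6.49 with tamoxifen alone, and 8.88 and 8.85 with acolbifene. E2+raloxifene exceeded E2 by 2.01 log2 (SE 0.16, adjusted p = 0.00182). Mmp12, macrophage elastase, was at 7.69 and 7.50 with E2, and 7.85, 9.0 and 8.00 in the combinations, and at 9.13 with fulvestrant alone (E2+raloxifene minus E2 1.41 log2, SE 0.12, adjusted p = 0.00182). Il1rn, the interleukin-1 receptor antagonist, was at 7.34 and 7.67 with E2 and 7.81, 8.71 and 7.54 in the combinations (1.21 log2, SE 0.14, adjusted p = 0.00783). Col12a1, a collagen, rose by 1.05 log2 and Clec4d, a C-type lectin of myeloid cells, by 1.04 log2. The rest, named after their values were seen, were C3ar1 (2 probe sets), Ms4a6d, Gpnmb and Timp1 and 1 unnamed probe set.

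Markers of other cell types differed in the same arrays. The summed level of 17 macrophage markers was 15.29 and 15.30 log2 on the E2 arrays, 15.27 with E2+fulvestrant, 15.64 with E2+raloxifene and 15.20 with E2+tamoxifen, and 15.62 with fulvestrant alone. Of the 17, 16 were above both E2 arrays with E2+raloxifene, against 6 with E2+fulvestrant and 1 with E2+tamoxifen, and none was dim on all arrays. For 16 fibroblast and matrix markers the summed level was 16.43 and 16.54 with E2, 16.45 with E2+fulvestrant, 16.76 with E2+raloxifene and 16.33 with E2+tamoxifen. All 27 skeletal muscle markers were below both E2 arrays with E2+raloxifene. The part of these cell types in the raloxifene changes was not tested. For all genes, 43.4% were above and 33.9% below both E2 arrays with E2+raloxifene.

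**Figure D3:**
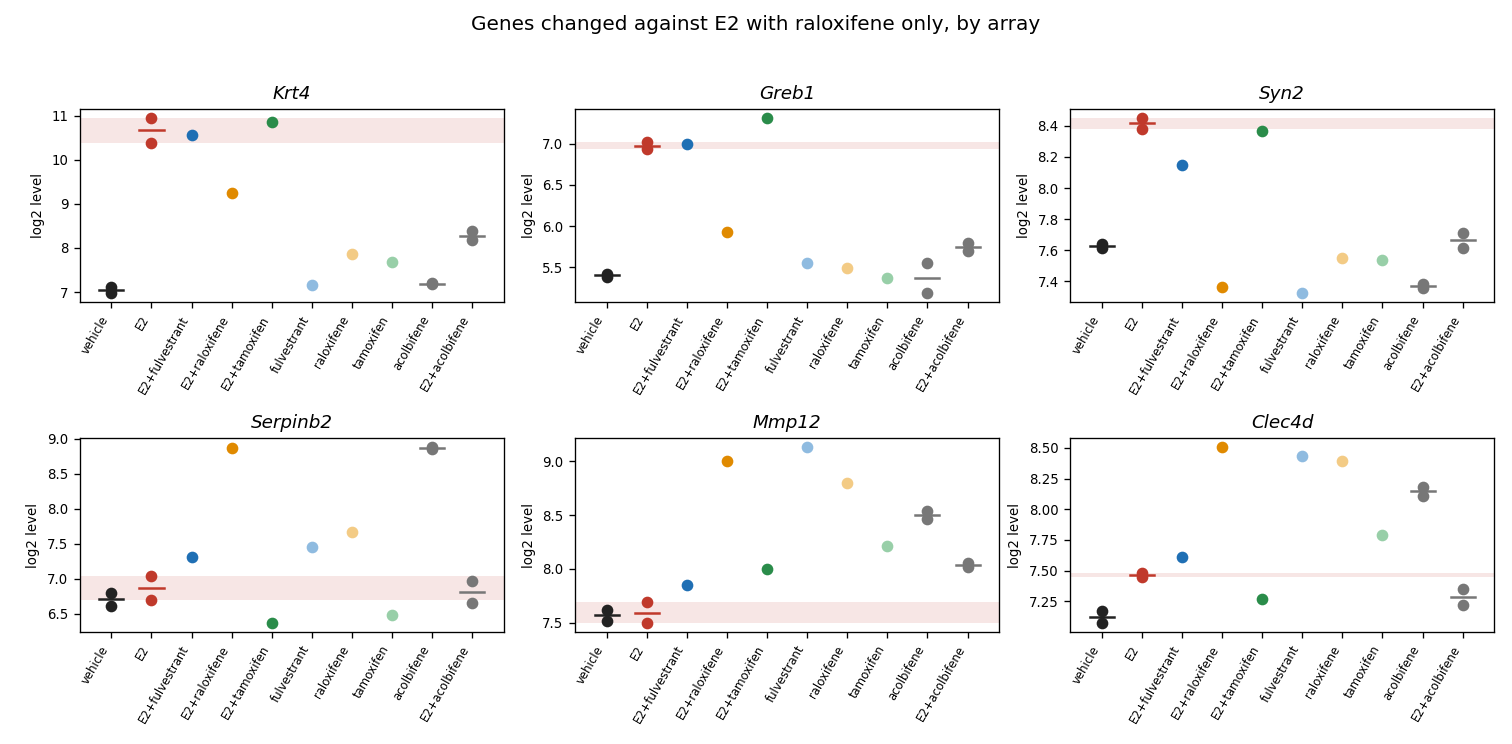
log2 level (y axis) of 6 genes on the 14 arrays by treatment (x axis), drawn as in the plot of shared falls. Krt4, Greb1 and Syn2 are lowest of the 3 combinations with E2+raloxifene, and Serpinb2, Mmp12 and Clec4d are highest of the 3 there. These positions were required by the rule for raloxifene only. Serpinb2, Mmp12 and Clec4d also lie above both E2 arrays with raloxifene alone, with fulvestrant alone and on both acolbifene arrays.

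The fulvestrant-only change was in Lor, loricrin, a structural protein of the cornified epidermis. Its probe set was at 5.43 and 5.80 with E2, 7.83 with E2+fulvestrant, 6.05 with E2+raloxifene and 4.95 with E2+tamoxifen, and fulvestrant alone was at 5.43. E2+fulvestrant exceeded E2 by 2.22 log2 (SE 0.19, adjusted p = 0.0041). On all arrays but E2+fulvestrant this probe set of Lor lay below the dim level of 6.65, so the size of this difference is uncertain, and no fulvestrant-only call was left with dim probe sets left out. A second probe set of Lor was also highest with E2+fulvestrant, at 7.59 against 7.03 and 7.02 with E2, without passing, whereas the last one was at 5.96 against 5.88 and 5.92. Krt77 and Krt1, keratins of the suprabasal epidermis, had the next largest gaps but did not meet the rule, at 8.72 against 7.26 and 7.53, and 7.88 against 6.79 and 6.52. On the lower side 0 probe sets met it; the largest gaps were in Cd5l, H2-Eb2 and Fcrla, genes of immune cells, for which E2+fulvestrant was 0.35 to 0.43 log2 below the nearest of the 4 other arrays.

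For tamoxifen only, Dmkn, dermokine, another product of the epidermis, fell: it was at 8.15 and 7.70 with E2, 8.63 with E2+fulvestrant, 8.64 with E2+raloxifene and 7.04 with E2+tamoxifen. Tamoxifen differed from the other 2 combinations by -1.60 log2 (SE 0.16, adjusted p = 0.00423) and from E2 by -0.89 log2 (adjusted p = 0.0291). Sprr1b, a small proline-rich protein of the epidermis, was the higher one, at a dim level of 6.06 against 5.17 and 5.08. Sox4, Car12 and Nrsn2 had the largest gaps upward, and Krt10 and Cxcl5 downward, but these did not meet the rule. The tamoxifen count was 0 without E2 array 2 and 1 without E2+raloxifene. The fulvestrant count was 0 without E2+tamoxifen, 3 without either E2 array and 2 without any 1 other array of a replicated group.

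Keratinocyte markers differed between the combinations as well. The summed level of 15 keratinocyte markers was 11.17 and 11.14 log2 with E2, 11.76 with E2+fulvestrant, 11.40 with E2+raloxifene and 11.02 with E2+tamoxifen, and 11.16, 11.20 and 11.35 with the blockers alone. Of the 15, 12 were above both E2 arrays with E2+fulvestrant, against 39.6% of all genes, and 7 below with E2+tamoxifen, near the 48.7% of all genes; 6 of the 15 were dim on all arrays. The part of skin in the glands taken was not tested.

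**Figure D4:**
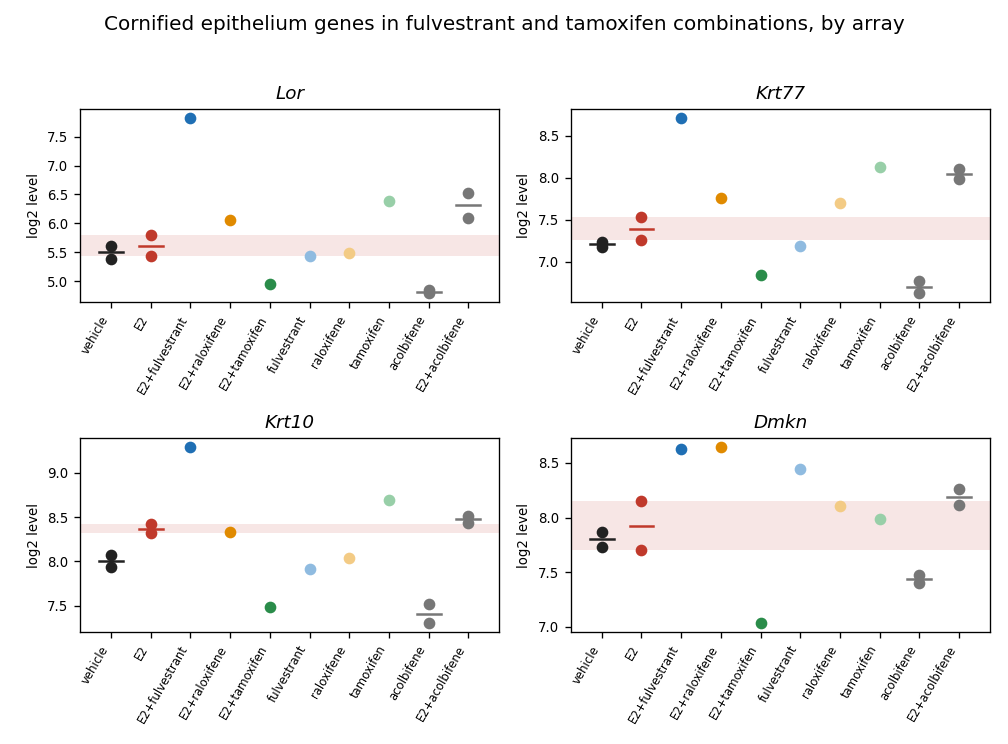
log2 level (y axis) of Lor, Krt77, Krt10 and Dmkn on the 14 arrays by treatment (x axis), drawn as in the plot of shared falls. Lor, Krt77 and Krt10 are highest of the 3 combinations with E2+fulvestrant, and all 4 genes are lower with E2+tamoxifen than on either E2 array.

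The compounds were also compared directly, in 3 pairs in which the E2 arrays enter only through the spread. At an unknown match of doses, E2+fulvestrant and E2+raloxifene differed in 0 probe sets (0%) by limma, with 2593 at an unadjusted p under 0.05; the count was 29 without either E2 array. For Krt4 the difference of fulvestrant minus raloxifene was 1.32 log2 with a 95% interval of 0.84 to 1.80, so the missing call does not show that they act alike. E2+fulvestrant exceeded E2+tamoxifen in 6 probe sets (0.0133%) and fell below it in none: Lor by 2.89 log2 (SE 0.21, adjusted p = 0.000994), Krt77 by 1.87 log2 (SE 0.15) and Krt10 by 1.80 log2 (SE 0.14) were the named ones. For Lor, dim with E2+tamoxifen at 4.95, the size is uncertain. That count was 13 without either E2 array.

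E2+raloxifene and E2+tamoxifen differed in 20 probe sets (0.0444%), 16 higher and 4 lower with raloxifene. Serpinb2 was 2.50 log2 higher (SE 0.19, adjusted p = 0.00117), Cxcl5, a neutrophil chemokine, 2.37 log2 higher (SE 0.22, adjusted p = 0.00337) and Saa3, an acute phase protein, 1.68 log2 higher (SE 0.24, adjusted p = 0.0409). Krt4 was lower by a difference of -1.61 log2 (SE 0.22, adjusted p = 0.0363), Greb1 by -1.40 log2 (SE 0.16, adjusted p = 0.0171) and Syn2 was lower as well (adjusted p = 0.0205). The count was 46 without either E2 array, 8 without either vehicle array and 13 without either E2+acolbifene array. With p-values adjusted over the 3 pairs together, 3, 6 and 12 probe sets passed in the order given. For fulvestrant, a steroid, and tamoxifen, a triphenylethylene, the 95% interval of the Krt4 difference was -0.77 to 0.19 log2 and that of Greb1 -0.67 to 0.04 log2, so neither gene was called different, and differences within these intervals remain possible.

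**Figure D5:**
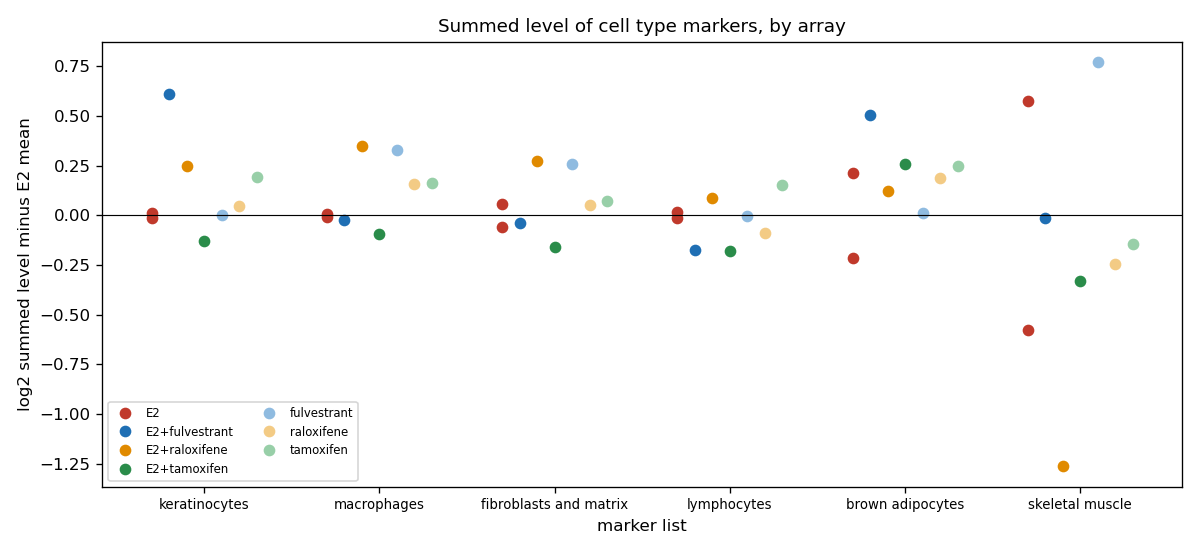
log2 summed level minus the mean of the 2 E2 arrays (y axis) for 6 lists of cell type markers (x axis); each dot is an array, coloured by treatment. The E2+raloxifene dot is highest of the combinations for macrophages and fibroblasts and lowest for skeletal muscle, the E2+fulvestrant dot is highest for keratinocytes, and the 2 E2 dots lie far apart for skeletal muscle.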

How the data were processed

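The authors deposited 1 table of log2 levels for 14 Affymetrix arrays. The submitters' processing notes name RMA, with no version; RMA normalizes quantiles between arrays and compresses weak signals. The design text names U74Av2 arrays, whereas the 45101 probe sets are those of a later, larger mouse array. After 64 control probe sets were left out, 45037 were tested, 34945 of them with 1 gene symbol (18193 genes). limma 3.58.1 in R 4.3.3 (lmFit, eBayes) fitted 10 treatment groups on all 14 arrays with no term for the raw-file code (4 residual degrees of freedom, from the 4 replicated groups), and unreplicated arrays are assumed to vary like those. P-values were Benjamini-Hochberg adjusted over all probe sets, at 0.05, and reflect only how far arrays of a group differ, which can be technical. The fit was tested on simulated data. Named genes are the 15 shared in each direction with the largest gap between the nearest combination and E2 arrays, the 5 (or 3, where fewer than 3 passed) per direction for one compound, the 3 per direction for pairs of compounds, and members of the 35 gene lists (672 of 718 genes measured, each by its brightest probe set). Members and lists were chosen with earlier results of these data known. Promoters are those of RefSeq. Alternatives were a term for the code, a variance trend, dim probe sets left out, a second quantile normalization, median centring and leaving out arrays.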

Additional observations from a re-analysis of the deposited data

Results flagged for a closer look

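By the test of the difference from the mean of the other 2 combinations (limma), 15 named genes differed between compounds given with E2, in 20 differences. With fulvestrant Lor was higher by 2.34 log2, Krt77 by 1.41 and Krt10 by 1.38 log2. With raloxifene Serpinb2 was higher by 2.04, Mmp12 by 1.08, Il1rn by 1.03, Col12a1 by 1.13, Clec4d by 1.06 and Cxcl5 by 1.86 log2, and the differences were -1.46 log2 for Krt4, -1.24 for Greb1, -1.08 for Mfsd4a, -0.91 for Mmd2 and -0.89 for Syn2. With tamoxifen the differences were -1.99 log2 for Lor, -1.40 for Krt77, -1.72 for Serpinb2, -1.60 for Dmkn, -1.32 for Krt10 and -1.69 for Cxcl5. Each of the 20 differences rests on 1 array per compound. They are not independent, since a high array of 1 compound also enters the mean set against the other compounds. Serpinb2 was at 6.37 with E2+tamoxifen, against 7.03 and 6.70 with E2 and 8.87 with E2+raloxifene. Lor was dim with E2 and with E2+tamoxifen, so the size of its differences is uncertain.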

How the results depend on the processing

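No paired analysis was possible because each combination has 1 array, whose replicate number only names it. The exception is the pairing of each combination with the same blocker alone, given below as the compound block. The 204 shared changes (61 higher, 143 lower) became 5 (0 and 5) with a term for the code, 1476 with an intensity trend in the prior variance, 723 with dim probe sets left out, 93 (20 and 73) after a second quantile normalization, 484 (70 and 414) with arrays centred on their medians, 1 in a fit of the 5 arrays as 2 groups (7608 at an unadjusted p under 0.05) and 83 with a 1.5-fold minimum. Of 2 alternatives chosen after seeing the data, 19 also passed for the difference of the E2 effects, and 166 were left without probe sets in which the 6 unreplicated arrays stand apart. Leaving out 1 array gave 7 to 850. For fulvestrant only (1), the code term gave 2, the trend 4, dim probe sets left out 0, the second normalization 2 and leaving out 1 array 0 to 3. For raloxifene only (17), the trend gave 117, dim probe sets left out 30 and leaving out 1 array 0 to 20. For tamoxifen only (2), the code term gave 0, the trend 31, dim probe sets left out 1 and leaving out 1 array 0 to 3. Fulvestrant minus raloxifene (0) had 29 with the code term, 111 with the trend, 3 adjusted over the 3 pairs together and 0 to 29 leaving out 1 array. Fulvestrant minus tamoxifen (6) had 13, 19 and 4 to 13 under the code term, the trend and leaving out 1 array. Raloxifene minus tamoxifen (20) had 46, 288, 37 with dim probe sets left out, 12 after the second normalization, 12 over the 3 pairs and 8 to 46. Combinations minus blockers alone (193) had 337 with the trend, 86 with the compound as a block on 6 arrays (chosen after seeing the data) and 50 to 259. Combinations minus vehicle (3957) had 33 with the code term and 753 to 3947. The causes were not tested. None of the 61 named differences that were refitted turned its direction; genes named from the lists were not refitted. The number of arrays limits the precision.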
